A study of Mus musculus with 16 samples.

Results

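miR-146a-5p and miR-146b-5p, the microRNAs MIMAT0000158 and MIMAT0003475 of the count table, are 2 of the 853 mature microRNAs counted in splenic conventional type 1 dendritic cells (cDC1s) of mice. They were chosen by identifier as a pair of microRNAs of NF-kB feedback, with no threshold on a measured value but with earlier results of these data known. Their levels and differences are therefore given as a description, and the p-values, which come from a fit of the whole table, support nothing beyond these libraries. Both passed the filter on low counts, which left 255 microRNAs.

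The libraries came from 4 groups of 4 on the C57BL6 strain: Xbp1-deficient cells (labelled Xbp1 KO), compound-deficient cells that lack Ire1a and Xbp1 (labelled Xbp1-Ire1 KO), and a WT group for the line of each. IRE1 senses unfolded protein in the endoplasmic reticulum; its ribonuclease activates XBP1, a transcription factor, by splicing its transcript and can cut other RNAs. The design asks what differs with loss of XBP1 and what with loss of IRE1 in addition. The sources used here give neither the alleles, nor the driver of the deletion, nor the age of the mice. The deleted genes are read from messenger RNAs, which a microRNA table does not hold, and the identifiers are not paired with names in the files or the reference, so neither the genotypes nor the cDC1 identity were checked against markers.

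miR-146a is transcribed on activation of NF-kB, for example downstream of Toll-like receptors, and represses TRAF6 and IRAK1, proteins that carry the receptor signal to NF-kB. The loop dampens inflammatory signalling in myeloid cells, dendritic cells among them. miR-146b comes from a separate gene, shares the targets by its sequence, and is induced by IL-10 through STAT3 in human monocytes.

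Both sequences are shown because their near identity sets what reads can tell apart. The seed, bases 2 to 8 from the 5′ end and the part that selects targets, is in capitals, and the sequences are those of RefSeq on GRCm38.p6.
miR-146a-5p: uGAGAACUgaauuccauggguu
miR-146b-5p: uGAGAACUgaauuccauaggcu
They are identical at 20 of 22 positions and differ by G18A and U21C, with the miR-146a-5p base first and positions counted from the 5′ end. The first 17 bases are the same, so a read trimmed to that length could come from either, and how the authors assigned such reads or how many mismatches they allowed is not stated in what was used here. No other of the 1738 mature sequences in the RefSeq table has this seed, and, aligned from the 5′ end without gaps, any microRNA outside the pair differs from miR-146a-5p at 8 or more positions and from miR-146b-5p at 9 or more.

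The precursors differ far more than their 5p arms. They are given with both mature arms in capitals, the 5p arm first.
Mir146: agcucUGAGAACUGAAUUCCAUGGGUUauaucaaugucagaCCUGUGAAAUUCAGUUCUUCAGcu
Mir146b: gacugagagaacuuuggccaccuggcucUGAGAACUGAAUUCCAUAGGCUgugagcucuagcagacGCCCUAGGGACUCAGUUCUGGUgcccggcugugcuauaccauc
Mir146, the gene of miR-146a, lies at chr11:43374397-43374461 on the minus strand of GRCm38, outside any other gene of GENCODE M21. The nearest is the lincRNA Gm12148 at a distance of 11021 bases. Mir146b lies at chr19:46342762-46342870 on the plus strand, in an intron of the protein-coding gene Mfsd13a, which runs on the same strand. The 3p arms are identical at 4 of 22 positions. Their counts are not analysed here, since no source used here gives their identifiers.

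The shared seed pairs with AGTTCTCA in a target, which is the complement of bases 2 to 8 followed by an A. Sites in the 3′ UTRs of the textbook targets are shown as the DNA letters of the GENCODE M21 transcripts, with the seed match in capitals.
Traf6 site at base 460: ccgctctggtgttgAGTTCTCA
Traf6 site at base 524: ccctggaaggcttaAGTTCTCA
Irak1 site at base 40: gactcagaggtcaaAGTTCTCA
Irak1 site at base 56: ttctcatgcttggaAGTTCTCA
Bases are counted from the first after the stop codon in the transcript of each gene with the longest 3′ UTR, which for Traf6 holds further matches at bases 1336 and 3860. These letters occur on the transcript strand in 4.04% of 20911 3′ UTRs, 1 per gene, whose lengths differ. Those of Traf6 and Irak1 were 4170 and 1526 bases long, against a median of 956 bases. A longer 3′ UTR has more places for a match, so the share is not a like background. The match is a description of sequence, and neither target was measured here.

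Both microRNAs were abundant enough to be counted precisely. Total counts ranged from 175165 to 1403393 per library. miR-146a-5p had 524 to 4853 reads in a library and held place 22 to 36 by read count. miR-146b-5p had 573 to 3543 reads and held place 24 to 39. Levels are given as CPM, counts scaled to a fixed library total, on TMM-scaled library sizes, an edgeR scaling that assumes most microRNAs do not differ. A level is an amount relative to the other microRNAs in a pool of sorted cells, so fewer cells with the microRNA and less of it per cell cannot be told apart.

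In compound-deficient cDC1s, miR-146a-5p fell by 35.4% relative to the WT of the line. It stood at 3610, 3073, 2746 and 2769 CPM in compound-deficient replicates 1 to 4, against 4599, 4098, 4927 and 5276 CPM in WT replicates 1 to 4. All 4 deficient libraries lay below all 4 WT libraries, as was so for 5.1% of the 255 microRNAs tested. The means were 3049 ± 402 CPM in compound-deficient cells and 4725 ± 501 CPM in WT cells (SD, n = 4 each). The log2 fold change was −0.63 (SE 0.13, 95% interval −0.90 to −0.36), with an adjusted p of 0.00750 in edgeR's quasi-likelihood test. In this comparison 2.35% of the tested microRNAs passed as lower and 5.88% passed in either direction. The balance of directions depended on the scaling, with 6 lower and 9 higher here, 11 lower and 8 higher with total counts alone, and 21 lower and 3 higher with upper-quartile scaling, which moved the median of all tested microRNAs by −0.28. miR-146a-5p passed as lower under each of these. By p it held place 4 of 255, while 34 microRNAs had a more negative log2 fold change. Its SE was small beside the median SE of 0.36 over all tested microRNAs.

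miR-146b-5p did not pass in the same cells. It stood at 3317, 4087, 3335 and 3028 CPM in compound-deficient replicates 1 to 4, against 4016, 3255, 3385 and 4540 CPM in WT replicates 1 to 4. The groups overlapped over most of their range, and 1 deficient library lay below all WT libraries. The means were 3442 ± 453 CPM in compound-deficient cells and 3799 ± 595 CPM in WT cells (SD, n = 4 each). The log2 fold change was −0.14 (SE 0.15, interval −0.45 to 0.16; edgeR adjusted p 0.703). The interval corresponds to −26.6% at its lower end, so a moderate decrease was not excluded at this spread. The value was −0.30 without compound-deficient replicate 2, −0.091 without WT replicate 4, −0.25 with total counts alone and −0.42 with upper-quartile scaling, and passed under none of these.

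**Figure D1:**
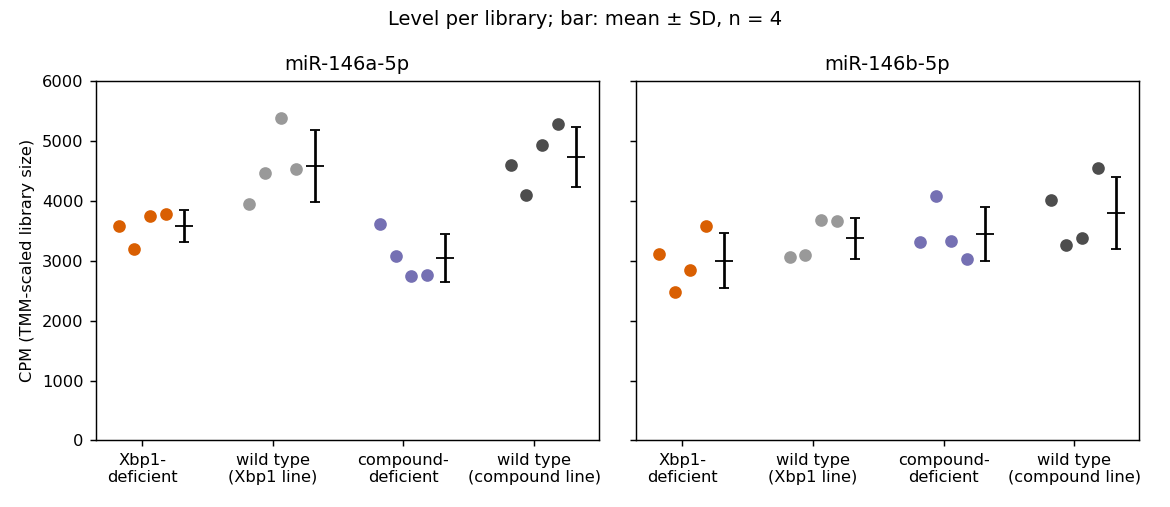
Level of miR-146a-5p and miR-146b-5p in CPM (y axis) in each library (points, in the order of the replicate numbers) of the 4 groups (x axis), with the mean ± SD (n = 4) at the right of each group. For miR-146a-5p the 8 deficient libraries sit between 2746 and 3783 CPM and the 8 WT libraries between 3954 and 5389 CPM, whereas for miR-146b-5p the groups overlap.

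In Xbp1-deficient cDC1s, the levels of miR-146a-5p in CPM were separated from WT as well, but the test over the whole table was not passed. It stood at 3587, 3199, 3753 and 3783 CPM in Xbp1-deficient replicates 1 to 4, against 3954, 4457, 5389 and 4524 CPM in WT replicates 4, 5, 6 and 8. The groups did not overlap in CPM, although the gap between deficient replicate 4 and WT replicate 4 was small. On the authors' log2 normalized values they overlapped. There deficient replicates 3 and 4, at 11.931 and 11.908, lay above WT replicate 4, at 11.904. In CPM, deficient groups lay wholly below WT for 7.06% of the tested microRNAs in this comparison. The means were 3580 ± 269 CPM in Xbp1-deficient cells and 4581 ± 596 CPM in WT cells (SD, n = 4 each). The log2 fold change was −0.36 (SE 0.13, interval −0.63 to −0.08), and edgeR's adjusted p was 0.166 at an unadjusted p of 0.0130. In this comparison 2.35% of the tested microRNAs passed. With libraries scaled by total counts alone the log2 fold change was −0.47 and passed at an edgeR adjusted p of 0.0411. That scaling moved the median of all tested microRNAs by −0.10. With upper-quartile scaling, which moved that median by 0.12, the log2 fold change was −0.23 (edgeR adjusted p 0.450). On the authors' log2 normalized values it was −0.27 (limma adjusted p 0.476).

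miR-146b-5p overlapped between the groups of the Xbp1 line. It stood at 3115, 2472, 2846 and 3577 CPM in Xbp1-deficient replicates 1 to 4, against 3061, 3098, 3682 and 3662 CPM in WT replicates 4, 5, 6 and 8. Only replicates 2 and 3 of the deficient group lay below all WT libraries. The means were 3002 ± 465 CPM in Xbp1-deficient cells and 3376 ± 342 CPM in WT cells (SD, n = 4 each). The fitted change was −0.17 in log2 (interval −0.47 to 0.14, SE 0.14; edgeR adjusted p 0.674). It was −0.085 without Xbp1-deficient replicate 2, −0.11 without WT replicate 8, −0.28 with total counts alone and −0.037 with upper-quartile scaling, and passed under none of these.

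Averaged over both lines, which share no library, miR-146a-5p fell by 28.9% in deficient cells. The log2 fold change was −0.49 (SE 0.09, interval −0.69 to −0.30; edgeR adjusted p 0.00108), where 7.45% of the tested microRNAs passed and 4.31% passed as lower. That is 11 lower and 8 higher, against 20 lower and 7 higher with total counts alone and 18 lower and 7 higher with upper-quartile scaling. Over the 8 deficient libraries its level had a lowest value of 2746, a median of 3393 and a highest of 3783 CPM, against 3954, 4561 and 5389 CPM over the 8 WT libraries. All 8 deficient libraries lay below all 8 WT libraries in CPM, which was so for 1.96% of the tested microRNAs. On the authors' log2 normalized values they did not, as Xbp1-deficient replicates 3 and 4 lay above WT replicate 4 of that line. For miR-146b-5p the lowest, median and highest levels were 2472, 3216 and 4087 CPM in deficient libraries, against 3061, 3524 and 4540 CPM in WT libraries. Its averaged log2 fold change was −0.16 (SE 0.10, interval −0.37 to 0.06; edgeR adjusted p 0.419), and −0.26 with total counts alone, which did not pass.

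**Figure D2:**
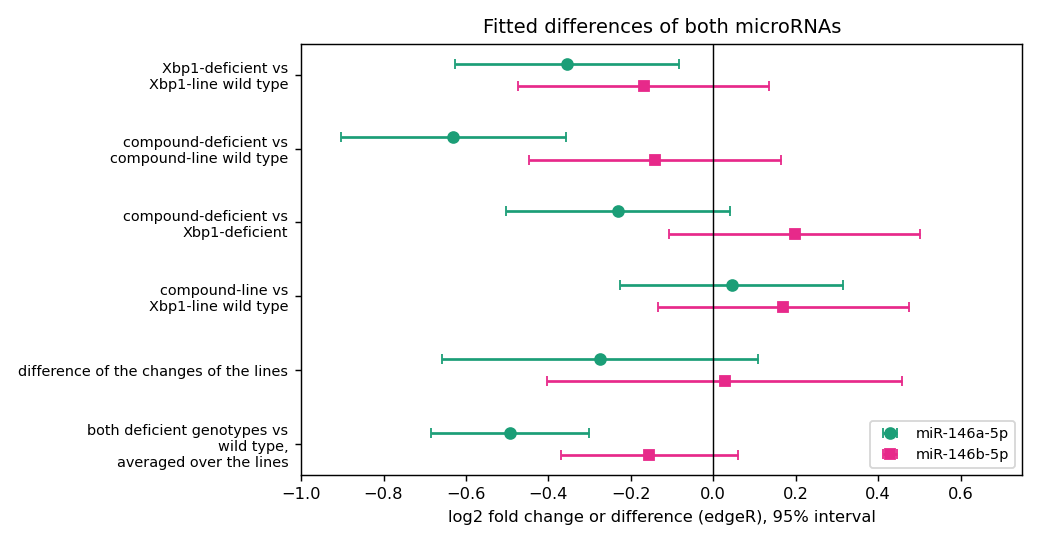
Fitted log2 fold change or difference (x axis, edgeR) of miR-146a-5p and miR-146b-5p with its 95% interval (bars) in each of the 6 comparisons (y axis). The intervals of miR-146a-5p lie below 0 in compound-deficient cells (−0.90 to −0.36), in Xbp1-deficient cells (−0.63 to −0.08) and in their average, and every interval of miR-146b-5p spans 0.

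Whether compound loss lowered miR-146a-5p more than loss of Xbp1 was not resolved. The difference of the changes of the lines was −0.27 on the log2 scale (SE 0.18, interval −0.66 to 0.11; edgeR adjusted p 0.723). It depended on the scaling, at −0.67 with upper-quartile scaling (edgeR adjusted p 0.0649), which moved the median of all tested microRNAs by −0.39. With the reads of both microRNAs summed it was −0.13. For miR-146b-5p the difference was 0.03 (SE 0.21, interval −0.40 to 0.46, edgeR adjusted p 0.989). With TMM no microRNA passed in this test in edgeR, so 0% of the 255 were called, with 26 at an unadjusted p under 0.05. DESeq2 called 1 and limma voom 0.

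Between the deficient genotypes, which share their libraries with the comparisons above, neither microRNA passed. miR-146a-5p was lower in compound-deficient than in Xbp1-deficient cells by a log2 value of −0.23 (SE 0.13, interval −0.50 to 0.04; edgeR adjusted p 0.411). Of the compound-deficient libraries 3 of 4 lay below all Xbp1-deficient libraries, and replicate 1 lay among them. Without compound-deficient replicate 1 the value was −0.41 and passed at an edgeR adjusted p of 0.0399, and with upper-quartile scaling it was −0.47 and passed at 0.0259. Upper-quartile scaling moved the median of all tested microRNAs by −0.24 in this comparison. miR-146b-5p gave 0.20 (SE 0.15, interval −0.11 to 0.50; edgeR adjusted p 0.518), a sign that turned under upper-quartile scaling, and was 0.026 without compound-deficient replicate 2 and 0.060 without Xbp1-deficient replicate 2. In this comparison 7.45% of the tested microRNAs passed.

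The WT groups of the lines did not differ detectably in either microRNA. The log2 difference of compound-line over Xbp1-line WT was 0.04 for miR-146a-5p (SE 0.13, interval −0.23 to 0.32; edgeR adjusted p 0.956) and 0.17 for miR-146b-5p (SE 0.15, interval −0.13 to 0.47; edgeR adjusted p 0.766). In edgeR 0% of the tested microRNAs passed here, with 24 at an unadjusted p under 0.05, while DESeq2 called 4 and limma voom 0.

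By mean level miR-146a-5p was ordered compound-line WT, Xbp1-line WT, Xbp1-deficient and compound-deficient, from high to low. Neighbours in this order overlapped, except Xbp1-deficient cells, which lay wholly below Xbp1-line WT in CPM but not on the authors' log2 normalized values. miR-146b-5p was ordered compound-line WT, compound-deficient, Xbp1-line WT and Xbp1-deficient, and all neighbours overlapped.

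**Figure D3:**
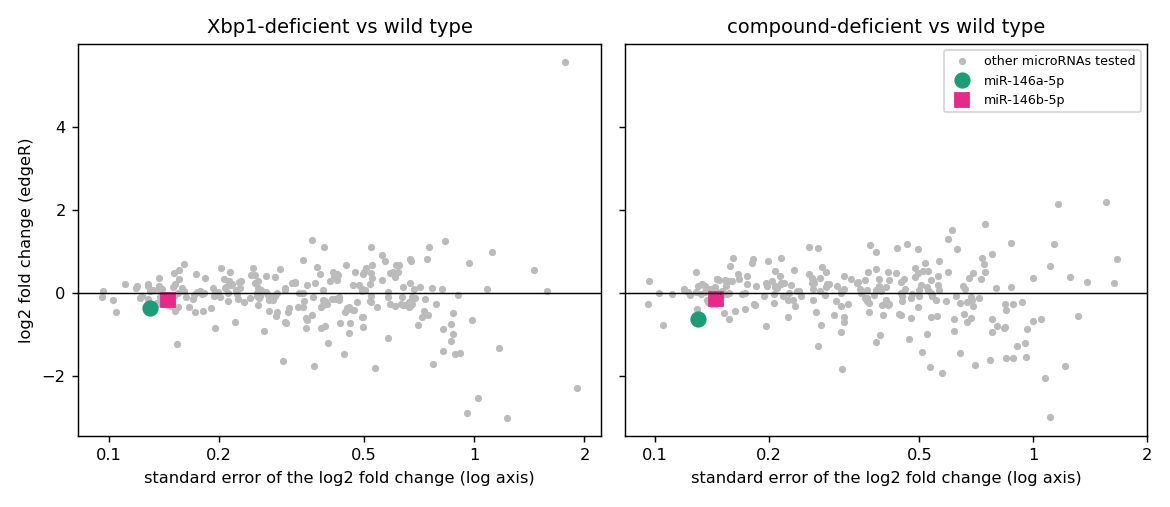
Log2 fold change (y axis) against its standard error (x axis, log scale) of all 255 microRNAs tested in each line, with miR-146a-5p and miR-146b-5p marked. Both lie at the left, among the microRNAs with small standard errors, and miR-146a-5p lies at −0.36 in Xbp1-deficient and −0.63 in compound-deficient cells.

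The balance of the pair within a library does not depend on scaling. Reads of miR-146a-5p per read of miR-146b-5p were 1.09, 0.752, 0.823 and 0.914 in compound-deficient replicates 1 to 4, against 1.15, 1.26, 1.46 and 1.16 in WT replicates 1 to 4. The ratio averaged 0.895 ± 0.145 in compound-deficient cells and 1.26 ± 0.142 in WT cells (SD, n = 4 each), and the groups did not overlap. How often ratios of other microRNAs separate these groups was not computed, so the separation is a description alone. In the Xbp1 line it was 1.15, 1.29, 1.32 and 1.06 in deficient replicates 1 to 4, against 1.29, 1.44, 1.46 and 1.24 in WT replicates 4, 5, 6 and 8. The ratio averaged 1.21 ± 0.123 in Xbp1-deficient cells and 1.36 ± 0.111 in WT cells (SD, n = 4 each), with overlap. In none of the 12 groups of 4 values, of either level or of the ratio, did a library's gap to its nearest neighbour exceed Dixon's 95% critical share of the range. The ratio uses the counts by which the pair is described above and was not tested.

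miR-146b-5p had more reads than miR-146a-5p in 3 of the 16 libraries, all of them compound-deficient. Reads were not calibrated to molecules here, so equal reads need not mean equal amounts in the cells. The share of miR-146a-5p in the reads of the pair was 42.9% (Wilson 95% interval 41.0 to 44.8) in compound-deficient replicate 2 and 45.2% (43.5 to 46.9) in replicate 3. It was 47.8% (44.8 to 50.7) in replicate 4, whose interval includes equal shares, and 52.1% (50.9 to 53.3) in replicate 1. In the other 12 libraries the share lay between 51.4% and 59.4%, and Xbp1-deficient replicate 4 was the lowest of these. Intervals cover counting error only and leave out the spread between libraries. Reads without molecular identifiers may include PCR copies, which would make the intervals too narrow.

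Compound-deficient replicate 1, in which miR-146a-5p still had more reads than miR-146b-5p, had 978134 counts in total. The other 3 libraries of its group had 175165 to 561610. The part of depth in the ratio was not tested. With log2 library totals added as a covariate, the log2 fold change of miR-146a-5p in compound-deficient cells was −0.63 and passed at an edgeR adjusted p of 0.00374.

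**Figure D4:**
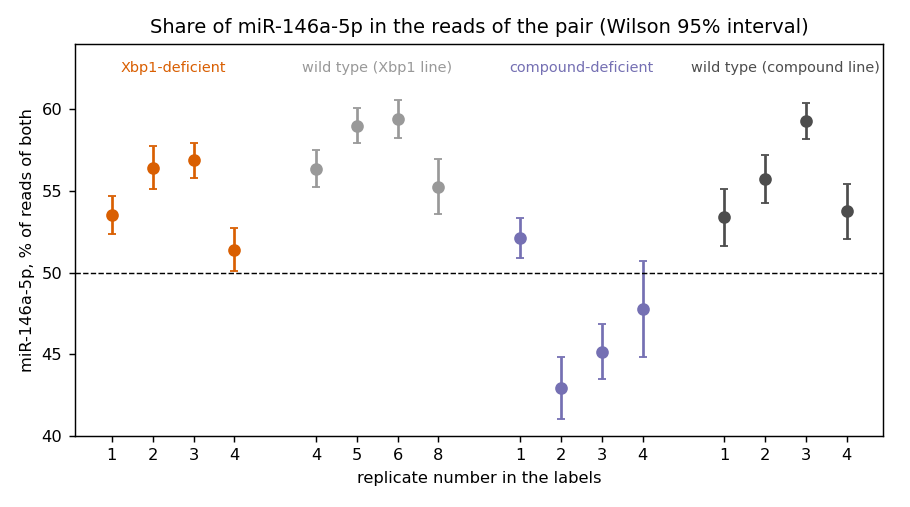
Share of miR-146a-5p in the reads of both microRNAs (y axis, percent) in each library (x axis, replicate number in the labels) by group, with Wilson 95% intervals (bars) and a dashed line at equal shares. Only compound-deficient replicates 2, 3 and 4 lie below the line, at 42.9%, 45.2% and 47.8%.

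Taken as a pool of microRNAs with the same seed, the pair summed to 6491 ± 655 CPM in compound-deficient cells and 8524 ± 1015 CPM in WT cells (SD, n = 4 each), without overlap. miR-146a-5p made up 82.4% of this difference of means. The gap was narrow, as the highest sum in compound-deficient libraries was 7160 CPM and the lowest in WT libraries was 7353 CPM. How often sums of other microRNAs separate these groups was not computed. In the Xbp1 line the sum was 6583 ± 695 CPM in Xbp1-deficient cells and 7957 ± 883 CPM in WT cells, with overlap, and miR-146a-5p made up 72.8% of the difference. With the reads of both summed to a single feature, the log2 fold change was −0.38 (SE 0.12, interval −0.64 to −0.12) in compound-deficient cells and did not pass, at an edgeR adjusted p of 0.0864. It was −0.25 (SE 0.12, edgeR adjusted p 0.358) in Xbp1-deficient cells, and averaged over the lines it was −0.31 (SE 0.09) and passed at an edgeR adjusted p of 0.0316. The summed deficient levels were close to each other, with a log2 difference of compound-deficient over Xbp1-deficient cells of −0.03 (interval −0.28 to 0.23).

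**Figure D5:**
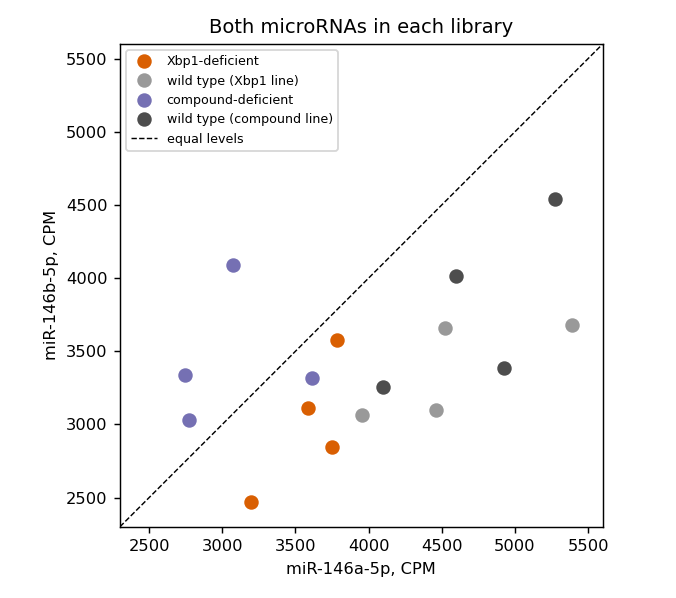
CPM of miR-146b-5p (y axis) against CPM of miR-146a-5p (x axis) in each of the 16 libraries, coloured by group, with a dashed line at equal levels in CPM. The WT libraries lie to the right of all deficient libraries, and 3 compound-deficient libraries lie above the line.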

How the data were processed

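Small RNA of 5000 to 50000 sorted cells per sample was extracted and sequenced, per the labels' protocols. Per the submitters' processing notes, the tools were Bowtie 1.1.2, cutadapt 1.8.1, limma 3.42.2 and FastQC 0.11.3, with GRCm38 and mm10 as builds and no roles stated. The authors deposited raw read counts for 853 microRNAs and log2 normalized values for 473, with 1 column per sample. Groups, lines and replicate numbers were read from the sample descriptions. Nothing says that replicates were separate mice, so p-values reflect spread among these samples that may be technical. No library repeated another of its group (chi-square per degree of freedom at least 15.7).

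The counts were tested with edgeR 4.0.16 in R 4.3.3: filterByExpr by group (count minimum 10), TMM, 1 quasi-likelihood fit of 16 libraries with 4 group means, two-sided F tests in 6 comparisons, and Benjamini-Hochberg adjustment over the 255 microRNAs tested, called under 0.05. Standard errors came from the fold change and F. The steps were tested on simulated counts. Members and lists were chosen with earlier results of these data known. The named microRNAs were the pair, 3 of most similar pattern across libraries for each and their neighbours in abundance. 3 lists (24 NF-kB-related microRNAs and 18 cell type markers) matched 0 identifiers in 13 reference files and gave no values. Alternatives were other scalings, filters, DESeq2 1.42.0, limma 3.58.1, fewer samples, a depth covariate, a replicate block and summed reads.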

Additional observations from a re-analysis of the deposited data

How the results depend on the processing

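The fall of miR-146a-5p in compound-deficient cells kept its direction in all 20 alternatives and passed in 18, with log2 fold changes of −0.90 to −0.38. It did not pass with the reads of both microRNAs summed (−0.38) or with a replicate block (−0.68, adjusted p 0.0605). Same-numbered libraries of the compound line correlated in their deviations at −0.26 to 0.26, and 1 of 4 deficient libraries correlated best with its own number. These few weak correlations did not show a pairing by number and cannot exclude one. The block moved the count of calls from 9, in a fit of these groups alone, to 4. No paired analysis was possible in the Xbp1 line because its groups share a single number. The averaged fall passed in all 26 alternatives (−0.60 to −0.31). Left-out libraries gave −0.80 to −0.62 in compound-deficient and −0.37 to −0.27 in Xbp1-deficient cells. In Xbp1-deficient cells miR-146a-5p passed in 1 of 19 alternatives, total counts alone (−0.47), and was weakest with upper-quartile scaling (−0.23). Between the deficient genotypes it passed with upper-quartile scaling (−0.47), and left-out libraries gave −0.41 to −0.26. All of these were more negative than the −0.23 of the main fit, and why was not tested. Between the WT groups miR-146a-5p turned to −0.063 without the filter, and left-out libraries gave −0.021 to 0.11. miR-146b-5p passed in no comparison under any setting that kept the members apart; as the summed reads it passed in the average of the lines (−0.31). Its left-out libraries gave −0.30 to −0.091 in compound-deficient cells, −0.23 to −0.085 in Xbp1-deficient cells, −0.22 to −0.13 averaged over the lines and 0.026 to 0.20 between the deficient genotypes. Its value between the deficient genotypes turned to −0.045 with upper-quartile scaling and −0.026 summed. Its near-zero difference of the changes turned to −0.0078 with DESeq2 size factors, −0.0071 with DESeq2, −0.38 with upper-quartile scaling, −0.020 without the filter, −0.021 with the depth covariate, −0.037 with the stricter filter, −0.045 on the deposited log2 values and −0.13 summed, and left-out libraries gave −0.15 to 0.074. The cause was not tested. Levels moved by less than the group SD with other scalings, which ratios cancel. Calls over all microRNAs were 6 in Xbp1-deficient cells, from 2 without deficient replicate 3 to 18 in DESeq2. They were 15 in compound-deficient cells, from 4 with the block to 24 with upper-quartile scaling, and 6 without deficient replicate 3. They were 19 averaged over the lines, from 15 to 33 in DESeq2, and 19 between the deficient genotypes, from 0 without Xbp1-deficient replicate 2 to 32 in DESeq2. They were 0 between the WT groups, with 14 without the filter, and 0 for the difference of the changes, with 3 under upper-quartile scaling.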

Other observations

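The levels of miR-146a-5p and miR-146b-5p were compared across libraries on the log2 CPM scale, within deficient and within WT libraries because these fall apart in miR-146a-5p. Over the 8 deficient libraries Pearson's r was −0.05 (exact permutation p 0.911) and Spearman's rho −0.05 (p 0.935). Over the 8 WT libraries r was 0.69 (exact permutation p 0.0621) and rho 0.81 (p 0.0218), and r was 0.53 without the 2 libraries farthest from the median of miR-146a-5p. None passed after Benjamini-Hochberg adjustment over the 4 tests (adjusted p 0.124 for r and 0.0871 for rho in WT libraries), and the difference between deficient and WT libraries was not tested. Each set mixes both lines.

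The microRNAs of most similar pattern to miR-146a-5p over the 16 libraries were MIMAT0000531 (r 0.82), MIMAT0000533 (r 0.80) and MIMAT0000208 (r 0.76). Those most similar to miR-146b-5p were MIMAT0000248 (r 0.85), MIMAT0000515 (r 0.83) and MIMAT0004861 (r 0.80). Between the members r was 0.45, which placed miR-146b-5p 32nd in the order of likeness to miR-146a-5p. These values share libraries, scaling and genotype groups and describe likeness of pattern across libraries alone, not of level. These 6 microRNAs were picked over the same genotype groups, so their fold changes are a description. In compound-deficient cells MIMAT0000531, MIMAT0000533 and MIMAT0000208 gave log2 fold changes of −0.77, −0.26 and −1.29 (edgeR adjusted p 0.000178, 0.132 and 0.00750), of which the second did not pass. MIMAT0000248, MIMAT0000515 and MIMAT0004861 gave −0.03, 0.02 and −0.27 (edgeR adjusted p 0.954, 0.956 and 0.800), and none passed. In Xbp1-deficient cells MIMAT0000531, MIMAT0000533 and MIMAT0000208 gave −0.45, −0.10 and −0.90 (edgeR adjusted p 0.0190, 0.724 and 0.0835). There MIMAT0000248, MIMAT0000515 and MIMAT0004861 gave −0.13, −0.13 and −0.15, and MIMAT0000531 alone passed. It also passed between the deficient genotypes (−0.36, edgeR adjusted p 0.0458).

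By mean CPM over the 16 libraries, miR-146a-5p at 3984 CPM lay between MIMAT0000514 (4053 CPM) and MIMAT0000674 (3954 CPM), and miR-146b-5p at 3405 CPM lay between MIMAT0000523 (3516 CPM) and MIMAT0000534 (3326 CPM). None of these 4 neighbours passed in either line in edgeR.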
